A study of Mus musculus with 2 samples.

Results

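The corticosteroid receptors and their target genes were described in heart tissue as a set of 10 genes chosen by symbol, of 55536 genes in the annotated table: the receptors Nr3c1 and Nr3c2, the hormone-activating enzyme gene Hsd11b1, and the target genes Fkbp5, Tsc22d3, Zbtb16, Klf9, Klf15, Sgk1 and Ddit4. All 10 symbols were found, each once. The samples were heart tissue of 2 female B6CASTF1/J mice, an F1 hybrid of C57BL/6J and CAST/EiJ parents, at an age of 2 months, with 1 total RNA library each from 300 ng of input, depleted of ribosomal RNA and spiked with ERCC control transcripts. The mice form 1 group (n = 2), with no treatment named and no control group. The labels number the libraries as biological replicates 1 and 2, called animal 1 and animal 2 here, from separate tissue samples, and give both the same donor identifier.

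Corticosterone, the main glucocorticoid of the mouse, enters cells and binds the glucocorticoid receptor or the mineralocorticoid receptor, which wait in the cytoplasm in a complex with heat shock proteins. The bound receptor moves to the nucleus and switches genes on at paired sites spaced by a few bases, the glucocorticoid response element. Heart muscle cells hold both receptors, and since corticosterone also binds the mineralocorticoid receptor, the enzymes that make or remove active hormone inside a tissue matter for which receptor is occupied.

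Reads on genes numbered 41862417 for animal 1 and 41790009 for animal 2, and 0.596% and 0.619% of all reads fell on spike-ins. Levels are TPM, a length-corrected relative abundance, from the first quantification, with the second, a separate estimate from the same libraries, given beside it. TPM tended to run lower in animal 1, with a median log2 TPM ratio of -0.22 over 16133 genes of at least 20 reads, so the animals were compared by reads scaled with TMM, a trimmed mean of ratios, where the median log2 ratio was 0.00. The comparison was an exact binomial test of 2 libraries, which sees counting error alone and not the variation between mice. Its p-values measure departure from counting error between these 2 libraries, and such a departure may be technical. The label of the tissue held, since all 6 cardiomyocyte markers were high, from 2395 ± 101 TPM for Pln to 7986 ± 543 TPM for Myh6 (SD, n = 2).

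All 10 genes were expressed in both hearts, and their levels spread over more than an order of magnitude. Ddit4 and Tsc22d3 stood highest, at 84.1 ± 17.1 and 82.5 ± 10.9 TPM, Zbtb16 and Klf9 followed, and the receptors and Hsd11b1 stood lowest (SD, n = 2). The order of the means was Ddit4, Tsc22d3, Zbtb16, Klf9, Sgk1, Klf15, Fkbp5, Nr3c1, Nr3c2 and Hsd11b1. The ranges over both animals overlapped for Ddit4 and Tsc22d3, for Zbtb16 and Klf9, for Sgk1 and Klf15, for Klf15 and Fkbp5 and for Fkbp5 and Nr3c1, and the first, the second and the last of these pairs changed places between the animals. They did not overlap for Tsc22d3 and Zbtb16, Klf9 and Sgk1, Nr3c1 and Nr3c2, or Nr3c2 and Hsd11b1. Among 11238 nuclear protein-coding genes of at least 1 TPM, Ddit4 lay at the 94.1 percentile, Nr3c1 at 77.7, Nr3c2 at 51.6 and Hsd11b1 at 27.5. TPM computed over nuclear protein-coding genes alone were higher throughout, from 9.81 for Hsd11b1 to 200.4 for Ddit4. Mean TPM of the second quantification were 0.934 times the first for Ddit4 and between 1.09 times (Zbtb16) and 1.48 times (Hsd11b1) for the other genes, with Nr3c1 at 32.8 ± 0.921 TPM in place of 23.2 ± 3.01 TPM. There Nr3c1 stood above Fkbp5 at 32.1 TPM and Klf15 at 29.8 TPM, and Nr3c2 and Hsd11b1 remained lowest. Ddit4 and Tsc22d3 changed places by mean, as did Zbtb16 and Klf9.

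**Figure D1:**
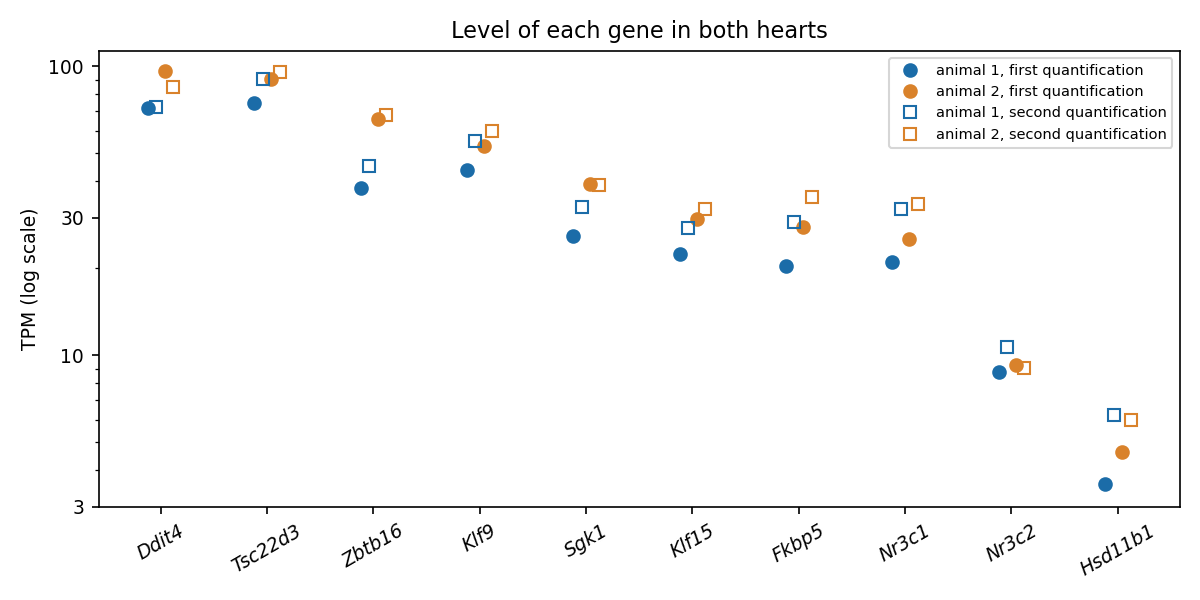
TPM (log scale) of the 10 genes, ordered by mean, in animal 1 (blue) and animal 2 (orange), with circles for the first and open squares for the second quantification. In the first quantification Ddit4 and Tsc22d3 lie between 71.9 and 96.2 TPM, and Hsd11b1 lies at 3.60 TPM in animal 1 and 4.62 TPM in animal 2.

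Of the 10 genes, 5 passed the test between the hearts (adjusted p at most 0.05, exact binomial test), all of them lower in animal 1: Zbtb16, Sgk1, Ddit4, Fkbp5 and Klf15. Over all 16133 genes tested, 6.6% passed lower in animal 1 and 4.75% passed higher in animal 1. More reads make more calls, and among 4554 genes with at least 2000 reads in total 13.2% passed lower and 8.26% higher in animal 1; of the 9 members of that depth, 5 passed lower and none higher. No member reached a 2-fold difference, which 1.38% of all tested genes did with the test. The members' median log2 ratio of animal 1 over animal 2 was -0.15, beside 0.00 for all tested genes, and 9 of 10 members had a ratio below 1, beside 49.3% of all tested genes. In whole tissue, fewer cells of a type and less RNA per cell cannot be told apart, and markers of mural, endothelial, fibroblast and fat cells were also lower in animal 1, with the values given after the gene groups. With libraries scaled by total gene reads instead, 8 members passed, with Nr3c1, Tsc22d3 and Klf9 in addition, and the small log2 ratio of Nr3c2 changed sign to -0.02. The deposited assignment spread of the first quantification was 0 for all 10 members in both libraries. Gene totals still differed between the quantifications. Ddit4 had 4419 reads in animal 1 and 5313 in animal 2 in the first, and 3619 and 4307 in the second.

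**Figure D2:**
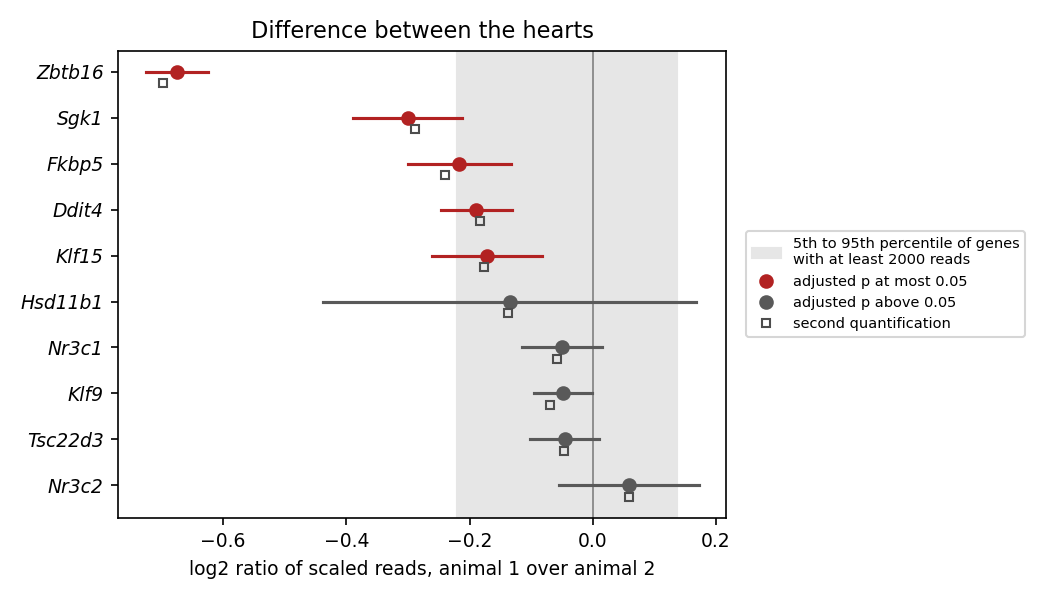
Log2 ratio of scaled reads, animal 1 over animal 2, for the 10 genes with exact 95% intervals (lines), the second quantification as open squares, and the range from the 5th to the 95th percentile of genes with at least 2000 reads in grey. Zbtb16 at -0.67 and Sgk1 at -0.30 lie below the grey range of -0.22 to 0.14.

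Nr3c1 (ENSMUSG00000024431.15; chromosome 18, 39410545 to 39519421, minus strand) encodes the glucocorticoid receptor, and Nr3c2 (ENSMUSG00000031618.13; chromosome 8, 76899442 to 77245012, plus strand) the mineralocorticoid receptor, which binds aldosterone and corticosterone. Nr3c1 had 3688 reads and 21.05 TPM in animal 1, and 4026 reads and 25.3 TPM in animal 2. Nr3c2 had 1259 reads and 8.74 TPM in animal 1, and 1275 reads and 9.27 TPM in animal 2. Glucocorticoid receptor RNA therefore exceeded mineralocorticoid receptor RNA in both hearts, 2.41-fold by TPM in animal 1 and 2.73-fold in animal 2, and 3.01-fold and 3.70-fold in the second quantification. Neither receptor passed the test between the animals: the ratio of scaled reads was 0.966 for Nr3c1 (95% interval 0.924 to 1.01; adjusted p = 0.406, exact binomial test) and 1.04 for Nr3c2 (0.963 to 1.13; adjusted p = 0.631, exact binomial test).

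The receptor transcripts were less certain than the gene totals. Nr3c1-203 took 56.5% ± 3.17 of the gene's TPM in the first quantification, but 23.6% in the second, which put Nr3c1-204, with the same coding length of 2376 bases and another start, first at 27.4%. For Nr3c2 both quantifications put Nr3c2-203 first, at 37.8% ± 5.90 and 37.4%. Nr3c2-208, annotated as a target of nonsense-mediated decay, which removes RNAs with an early stop, had 208 reads in animal 1 and 127 in animal 2, with assignment spreads of 37.3 reads in each. Its ratio of scaled reads was 1.73 in the first quantification and 1.74 in the second, while the gene as a whole was at 1.04; transcript values were not tested.

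Hsd11b1 (ENSMUSG00000016194.14; chromosome 1, 193221634 to 193264075, minus strand) encodes the enzyme that regenerates active corticosterone inside cells. It had 171 reads and 3.60 TPM in animal 1 and 198 reads and 4.62 TPM in animal 2, the lowest level of the 10 genes in both. The hearts did not differ beyond counting error at this depth, with a ratio of 0.911 and an interval of 0.738 to 1.12 (adjusted p = 0.687, exact binomial test). Its span overlaps Lamb3 on the opposite strand, which held 514 and 503 reads, and the sources used here do not say whether strand entered the counting. The first quantification gave 83.4% ± 10.7 of its TPM to Hsd11b1-205, and the second gave that transcript 2.21%, so no leading transcript is named.

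Genes that make, open or remove the hormone were mostly covered by few reads. Of 13 matched genes for steroid synthesis, activation, binding and export, 5 had enough reads to test, and none passed in either direction. H6pd, which supplies Hsd11b1's enzyme with its cofactor, was the highest at 15.7 ± 2.14 TPM, followed by the drug and steroid pumps Abcb1a at 3.38 ± 0.396 TPM and Abcb1b at 1.76 ± 0.502 TPM, and by Star at 0.360 ± 0.0283 TPM (SD, n = 2). Hsd11b2, which inactivates corticosterone in kidney cells and so leaves the mineralocorticoid receptor to aldosterone, had 4 reads in animal 1 and 6 in animal 2, and was named after its values were seen. Cyp11b2, the aldosterone synthase gene, had 0 reads in either library, where a count of 0 allows up to 0.0717 CPM in animal 1 and 0.0718 CPM in animal 2. The 5 markers of adrenal cortex held 31 and 26 reads in all, most of them from Star.

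In the cytoplasm the receptors are held ready to bind hormone by HSP90 and its partners. Of 15 genes of this chaperone complex, 9 passed the test lower in animal 1 and none passed higher, with a median log2 ratio of -0.12, beside 6.6% lower and 4.75% higher among all tested genes and 13.2% and 8.26% among those with at least 2000 reads. The highest were the chaperones Hspa8 at 556 ± 179.7 TPM and Hsp90ab1 at 471 ± 69.5 TPM, the immunophilin Fkbp4 at 141 ± 23.5 TPM, which helps carry the receptor to the nucleus, and the cochaperone Bag1 at 106 ± 13.3 TPM (SD, n = 2). Hspa8 had 29770 reads in animal 1 against 40911 in animal 2, a log2 ratio of -0.38, whereas Hsp90ab1 and Fkbp4 were each at -0.10 and Bag1 did not pass, at -0.02. Heat-inducible Hspa1a, with a near-identical copy next to it and so uncertain, had 111 reads in animal 1 against 410 in animal 2, a log2 ratio of -1.80 (adjusted p = 8.01e-36, exact binomial test). It was the member of this list past 2-fold.

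Fkbp5 (ENSMUSG00000024222.17; chromosome 17, 28399094 to 28517527, minus strand) encodes FKBP51, a cochaperone that lowers the receptor's affinity for hormone and that the receptor itself induces, a negative feedback loop. It had 2101 reads and 20.46 TPM in animal 1, and 2575 reads and 27.82 TPM in animal 2. Fkbp5 was lower in animal 1, at 0.861 of animal 2 (0.812 to 0.912; adjusted p = 9.19e-06, exact binomial test), and the second quantification put its log2 ratio at -0.24 beside -0.22 in the first. Fkbp5-201, which encodes the full protein, led in both quantifications, at 68.8% ± 0.240 and 51.5% of the gene's TPM. Small annotated genes inside its span on the same strand, AC154912.5 with 55 and 50 reads and AC154912.3 with 82 and 87, are counted apart from it.

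Promoter sequence was read for 8 of the 10 genes, from RefSeq on GRCm38.p6, as 250 bases before to 50 after each of 15 starts. No promoter of Nr3c1 or Zbtb16 was read, so their sites were not searched. The sequences read are reference letters of C57BL/6J, and the CAST allele was not analysed here. Matches were sought on both strands to the response element, written as AGAACA, any 3 bases, TGTTCT, which occurs in 0.00914% of 32817 promoters (3 of them), to the single site AGAACA, which is contained in it and occurs in 18.97%, to the E-box CACGTG, the site of clock factors, in 7.149%, and to TATAAA in 13.62%. Fkbp5 held 1 E-box, at positions -169 to -164 from the start, and no response element or AGAACA in this window. Its promoter is shown because Fkbp5 is the receptor's own feedback gene, with the E-box in capitals.
Fkbp5, chr17:28486100-28486399, minus strand: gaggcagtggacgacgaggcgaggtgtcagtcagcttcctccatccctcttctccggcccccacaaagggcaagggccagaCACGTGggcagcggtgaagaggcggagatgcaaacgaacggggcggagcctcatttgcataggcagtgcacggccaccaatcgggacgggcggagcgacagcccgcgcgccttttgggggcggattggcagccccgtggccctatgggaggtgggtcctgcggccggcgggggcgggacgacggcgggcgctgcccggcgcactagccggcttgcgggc

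Tsc22d3 (ENSMUSG00000031431.13; chromosome X, 140539528 to 140600659, minus strand) encodes GILZ, a leucine zipper protein that carries part of the anti-inflammatory action of glucocorticoids. It had 5023 reads and 74.79 TPM in animal 1, and 5468 reads and 90.23 TPM in animal 2. The scaled ratio was 0.969, with an interval of 0.932 to 1.01, short of the test (adjusted p = 0.360, exact binomial test). Its short form Tsc22d3-201, with a coding length of 411 bases, took 77.9% ± 3.42 of the gene's TPM, and Tsc22d3-203, which begins far upstream and codes for 603 bases, took 12.7% ± 0.693. In the second quantification these shares were 72.02% and 20.1%, in the same order. A RefSeq start near that of the long form held 1 single AGAACA site, at positions -185 to -180, and no response element. No start read lay within 100 bases of that of Tsc22d3-201, at 140543187, so the promoter of the leading short form was not searched.

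Zbtb16 (ENSMUSG00000066687.5; chromosome 9, 48654297 to 48836222, minus strand) encodes PLZF, a zinc finger repressor that glucocorticoids induce in many tissues. It had 5066 reads and 38.09 TPM in animal 1, and 8530 reads and 65.88 TPM in animal 2. The level in animal 1 was 0.626 of that in animal 2 in scaled reads (0.605 to 0.649; adjusted p = 2.82e-155, exact binomial test), a log2 ratio of -0.67 in the first quantification and -0.70 in the second. This was the largest difference among the 10 genes, and 6 of the 4554 genes with at least 2000 reads, Zbtb16 among them, had a log2 ratio as low or lower. It remained short of 2-fold under every scaling and filter tried.

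Zbtb16 has 2 annotated transcripts, which share a coding length of 2019 bases and differ in their starts and in how far they run past the coding sequence. Zbtb16-201, with 2848 bases after the coding sequence, had 3202 reads in animal 1 against 6232 in animal 2, a scaled ratio of 0.542. Zbtb16-202, with 228 such bases, had 1864 reads in animal 1 against 2298 in animal 2, a scaled ratio of 0.856. In the first quantification the long form led in animal 2 and not in animal 1, at 45.2% of the gene's TPM in animal 1 and 56.6% in animal 2. In the second quantification the ratios were 0.531 for the long form and 1.00 for the short form, and the long form led in both hearts, at 52.1% in animal 1 and 67.3% in animal 2. Assignment spreads in the first quantification were 44.7 reads in animal 1 and 56.9 in animal 2, small beside these counts; the difference between the forms was not tested.

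Klf9 (ENSMUSG00000033863.2; chromosome 19, 23141226 to 23168134, plus strand) encodes a Krüppel-like zinc finger factor that the receptor induces directly. It had 6923 reads and 43.93 TPM in animal 1, and 7552 reads and 53.19 TPM in animal 2. The scaled ratio was 0.967 (0.936 to 0.999), which had an unadjusted p of 0.0433 in the exact binomial test but missed the threshold after adjustment (adjusted p = 0.208, exact binomial test). In the second quantification the same gene passed, at a log2 ratio of -0.07 and an adjusted p of 0.0314 (exact binomial test), so its call depended on the quantification while the size stayed small. Klf9-201 took 96.0% ± 0.198 of its TPM in the first quantification and 87.6% in the second.

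Klf15 (ENSMUSG00000030087.11; chromosome 6, 90462576 to 90475238, plus strand) encodes a related factor that directs amino acid and lipid use in heart and skeletal muscle and that in mouse heart sets a daily rhythm of the potassium channel partner Kcnip2. It had 1874 reads and 22.52 TPM in animal 1, and 2226 reads and 29.66 TPM in animal 2. Klf15 was lower in animal 1, at a ratio of 0.888 (0.835 to 0.945; adjusted p = 0.00251, exact binomial test). Its 4 main transcripts share a coding length of 1245 bases, so the choice between them concerned the ends of the RNA. Klf15-201 took 72.4% ± 0.601 in the first quantification and 2.57% in the second, where Klf15-203, from a nearby start, came first at 51.3%. Taken by start, the site shown here served transcripts with 81.1% of the gene's TPM in the first quantification and 53.9% in the second. Its promoter held 3 E-boxes, at -228 to -223, -172 to -167 and -3 to 2, and no response element or single AGAACA, and the E-boxes are in capitals.
Klf15, chr6:90462326-90462625, plus strand: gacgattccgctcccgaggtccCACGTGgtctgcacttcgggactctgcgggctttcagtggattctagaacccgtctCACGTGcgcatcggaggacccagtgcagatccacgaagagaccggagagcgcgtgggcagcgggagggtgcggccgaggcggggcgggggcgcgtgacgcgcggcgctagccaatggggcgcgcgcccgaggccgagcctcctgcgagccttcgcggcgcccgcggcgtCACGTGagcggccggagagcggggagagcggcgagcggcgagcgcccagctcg

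Of 10 matched target genes of KLF15, most of them metabolic, 3 passed higher in animal 1 and 1 passed lower. The median log2 ratio was 0.03, and among genes with at least 2000 reads 8.26% passed higher and 13.2% lower. The gene that passed lower was the Krüppel-like factor gene Klf3, at a log2 ratio of -0.23, named after its values were seen. It had 1867 reads in animal 1 and 2313 in animal 2. The highest were Acadm, of medium-chain fatty acid oxidation, at 454 ± 56.9 TPM, the insulin-responsive glucose transporter Slc2a4 at 151 ± 12.8 TPM, and the branched-chain amino acid enzymes Bckdha at 92.5 ± 9.36 TPM and Bcat2 at 91.9 ± 5.996 TPM (SD, n = 2). Slc2a4 passed higher in animal 1 at a log2 ratio of 0.08, and the other three did not pass, with log2 ratios of -0.03, 0.01 and 0.02. Acadm passed in the second quantification, at -0.06 (adjusted p = 0.000384, exact binomial test).

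Sgk1 (ENSMUSG00000019970.15; chromosome 10, 21882184 to 21999903, plus strand) encodes a kinase that both receptors induce and that keeps sodium channels and pumps at the cell surface. It had 1823 reads and 25.9 TPM in animal 1, and 2368 reads and 39.18 TPM in animal 2. Sgk1 was lower in animal 1, at 0.812 of animal 2 (0.763 to 0.863; adjusted p = 1.05e-09, exact binomial test), the second largest difference of the set. The log2 ratio was -0.30 in the first quantification and -0.29 in the second. It has 13 annotated transcripts.

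The quantifications assigned Sgk1 reads to different starts. The first gave 72.7% of the gene's TPM in animal 1 and 81.2% in animal 2 to transcripts from the start at 21994666. It gave 18.3% and 14.9% to Sgk1-202 from the start at 21993890. At the start at 21994666, Sgk1-201 alone held 54.95% and 56.6%. The rest of that start's share lay on few reads of transcripts annotated as retaining an intron. These were Sgk1-207, with 36 reads in animal 1 and 40 in animal 2, and Sgk1-209, with 27 and 63. The second quantification gave 14.5% and 7.21% to the start at 21994666 and 62.2% and 62.7% to Sgk1-202. Both hearts showed the same order within each quantification. Assignment spreads in the first quantification were 69.7 to 85.7 reads for Sgk1-201 and Sgk1-202. The start at 21993890 held the sole response element among the 15 promoter entries read, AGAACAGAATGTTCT at positions -189 to -175. It also held an E-box at -246 to -241 that overlaps a further AGAACA on the other strand. The start at 21994666 held neither, and a TATAAA at -11 to -6. Both promoters are shown because the quantifications disagree on them, with the response element, E-box and TATAAA in capitals.
Sgk1 start at 21993890, chr10:21993640-21993939, plus strand: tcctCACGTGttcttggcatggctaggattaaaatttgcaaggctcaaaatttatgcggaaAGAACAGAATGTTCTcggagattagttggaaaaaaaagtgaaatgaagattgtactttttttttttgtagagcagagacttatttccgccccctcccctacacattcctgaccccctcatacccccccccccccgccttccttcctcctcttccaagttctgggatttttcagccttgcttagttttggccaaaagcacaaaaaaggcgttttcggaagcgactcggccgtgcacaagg
Sgk1 start at 21994666, chr10:21994416-21994715, plus strand: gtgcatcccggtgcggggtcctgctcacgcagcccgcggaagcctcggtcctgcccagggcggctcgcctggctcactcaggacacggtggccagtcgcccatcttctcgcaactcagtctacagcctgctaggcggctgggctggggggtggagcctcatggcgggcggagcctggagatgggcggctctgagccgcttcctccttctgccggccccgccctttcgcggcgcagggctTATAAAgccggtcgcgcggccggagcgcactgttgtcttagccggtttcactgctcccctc

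**Figure D3:**
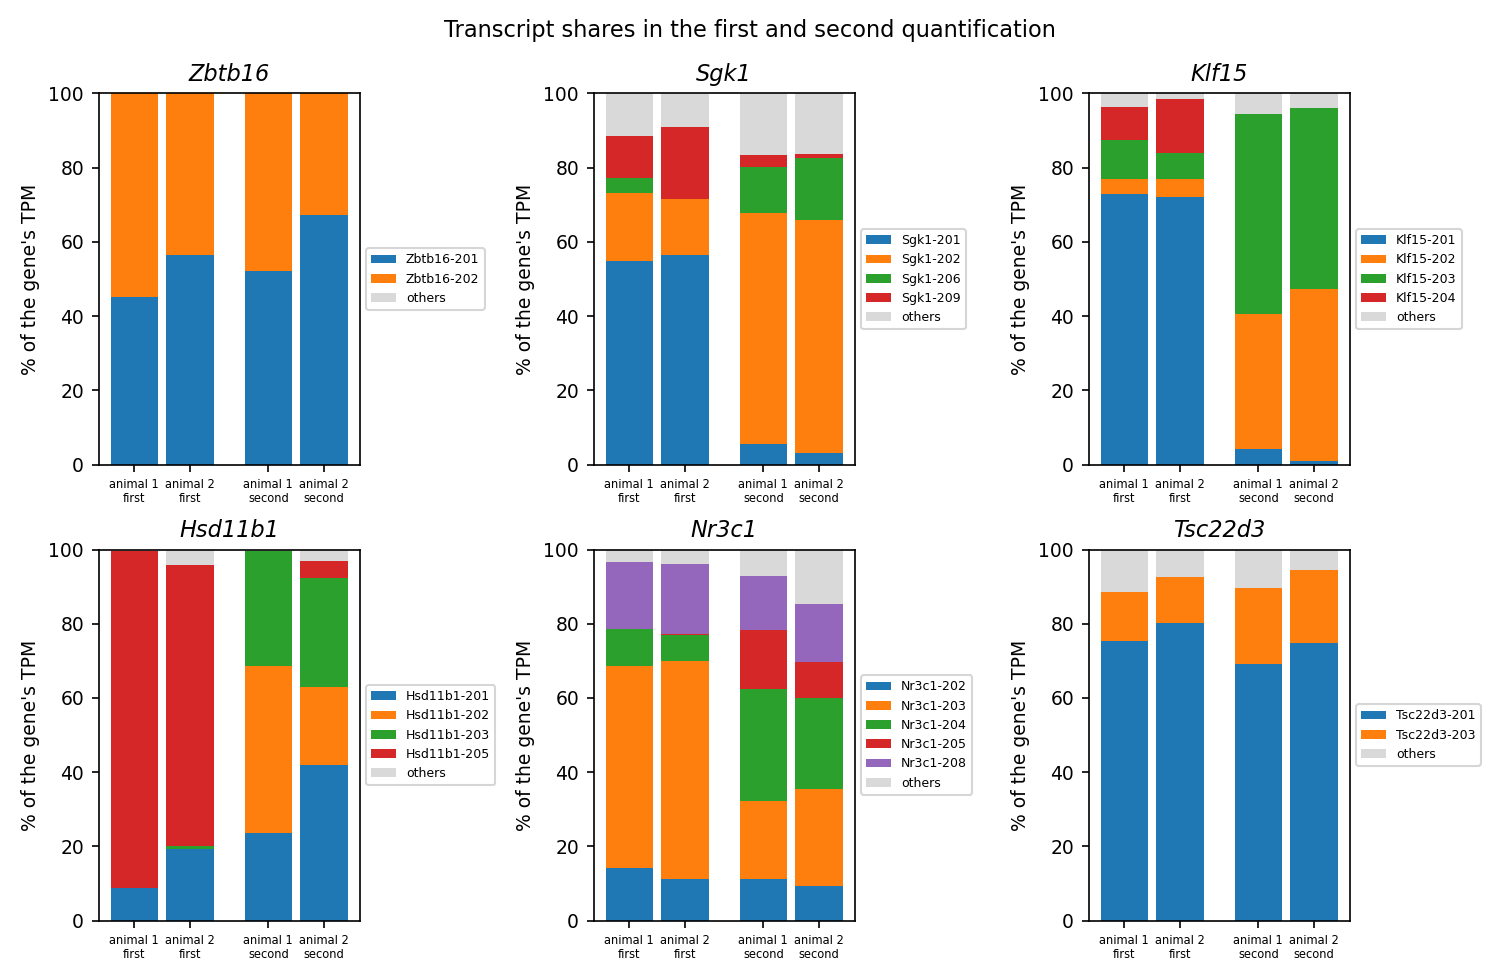
Percent of each gene's TPM held by its transcripts of at least 10% in any bar, others in grey, for animal 1 and animal 2 in the first and in the second quantification. Sgk1-202 takes 18.3% and 14.9% in the first quantification and 62.2% and 62.7% in the second, whereas Tsc22d3-201 leads in all 4 bars.

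**Figure D4:**
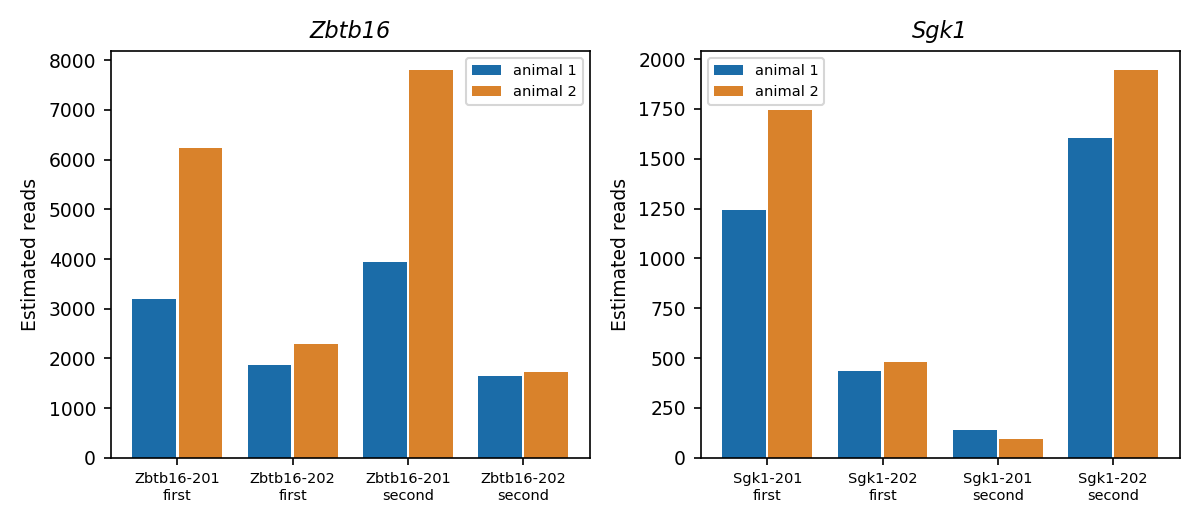
Estimated reads of the 2 Zbtb16 transcripts and of 2 Sgk1 transcripts in animal 1 (blue) and animal 2 (orange), in the first and second quantification. Zbtb16-201 has 3202 reads in animal 1 and 6232 in animal 2, and Zbtb16-202 has 1864 and 2298, in the first quantification.

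Genes of sodium transport and aldosterone response were abundant apart from the epithelial sodium channel. Of 13 genes, 11 were tested, 1 passed higher and 3 passed lower in animal 1, with a median log2 ratio of 0.01, beside 8.26% and 13.2% of genes with at least 2000 reads. Atp1b1, which encodes a subunit of the sodium pump, stood at 133 ± 16.3 TPM, the kinase Wnk1 at 150.1 ± 17.3 TPM and the ubiquitin ligase Nedd4 at 129 ± 15.0 TPM (SD, n = 2). Nppb, the wall stress peptide gene, had 1129 reads in animal 1 against 2625 in animal 2, a log2 ratio of -1.14 (adjusted p = 8.87e-116, exact binomial test), and was the gene of this list past 2-fold. The channel subunit genes Scnn1b and Scnn1g had 0 reads in either library, and Scnn1a had 32 in each, all 3 named after their values were seen.

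Ddit4 (ENSMUSG00000020108.4; chromosome 10, 59949669 to 59951834, minus strand) encodes REDD1, which holds back the growth kinase mTORC1 and is induced by glucocorticoids, low oxygen and energy stress. It had 4419 reads and 71.93 TPM in animal 1, and 5313 reads and 96.18 TPM in animal 2. Ddit4 was lower in animal 1, at 0.877 of animal 2 (0.843 to 0.913; adjusted p = 5.33e-09, exact binomial test). It has 1 annotated transcript, so no assignment among transcripts bears on it, and the second quantification gave a log2 ratio of -0.18 beside -0.19. Of its 10 partners in mTORC1 control 3 passed higher in animal 1 and none passed lower, with a median log2 ratio of 0.04, beside 8.26% and 13.2% of genes with at least 2000 reads. The highest were Txnip at 144 ± 6.13 TPM, the mTORC1 brake Tsc2 at 44.3 ± 2.26 TPM, its target Rheb at 31.7 ± 3.07 TPM and Akt1s1 at 24.9 ± 3.76 TPM (SD, n = 2). Txnip and Tsc2 passed higher in animal 1, at log2 ratios of 0.08 and 0.09, and Rheb and Akt1s1 did not pass. Tsc2 lost its call in the second quantification, at 0.06 (adjusted p = 0.201, exact binomial test).

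A broader list of 38 further glucocorticoid target genes, all tested, ran more often lower than higher in animal 1. In it 15 passed lower and 4 passed higher in animal 1, with a median log2 ratio of -0.10. A log2 ratio below 0 was found for 26 of the 38, beside 49.3% of all tested genes. Among genes with at least 2000 reads 13.2% passed lower and 8.26% higher, and among all tested genes 6.6% and 4.75%. The 15 that passed lower are not all named here. The 4 that passed higher were Pdk4, Ptgds, Arrdc2 and Fbxo32, with Arrdc2 and Fbxo32 named after their values were seen. The highest were Pdk4, which blocks glucose oxidation, at 288 ± 13.5 TPM, the prostaglandin synthase Ptgds at 229.9 ± 31.6 TPM, Tsc22d1 at 181 ± 26.0 TPM and glutamine synthetase, Glul, at 166 ± 18.0 TPM (SD, n = 2). Pdk4 had 26845 reads in animal 1 and 23385 in animal 2 (log2 ratio 0.28), and Ptgds 6219 and 4655 (0.49), while Tsc22d1 was lower at -0.07. Glul did not pass at -0.05, and in the second quantification it passed at -0.06 (adjusted p = 0.0100, exact binomial test). Pck1, of glucose and glycerol synthesis, had 261 reads in animal 1 against 761 in animal 2, a log2 ratio of -1.47, and was the gene past 2-fold (adjusted p = 2.75e-49, exact binomial test). Of 16 receptor coregulators, 2 passed lower in animal 1 and none higher, with a median log2 ratio of -0.01, a share lower in animal 1 near the 13.2% of genes with at least 2000 reads. Ppargc1a, the coactivator of mitochondrial genes, had 52.3 ± 16.7 TPM and a log2 ratio of -0.40, and the corepressor Ncor1 and the methyltransferase Prmt1, at 50.9 ± 4.90 and 35.3 ± 3.24 TPM (SD, n = 2), did not pass.

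Markers of several cell types other than cardiomyocytes also ran lower in animal 1 in scaled reads, beside the general shift of TPM described above. For comparison, 6.6% of all tested genes passed lower and 4.75% higher in animal 1. Among genes with at least 2000 reads these shares were 13.2% and 8.26%. The 6 mural markers, of smooth muscle and pericytes, summed to 176 TPM in animal 1 and 249 TPM in animal 2, with a median log2 ratio of -0.31, and all 6 passed lower. Endothelial markers summed to 366 and 463 TPM, with 5 of 6 passing lower. Fibroblast markers summed to 246 and 328 TPM with 4 of 6 lower, and macrophage markers to 58.3 and 79.3 TPM with 3 of 6 lower. The 6 adipocyte markers summed to 23.2 TPM in animal 1 and 59.8 TPM in animal 2, with 4 of 5 tested lower and a median log2 ratio of -1.20; Adipoq had 68 and 197 reads. Lymphocyte markers summed to 6.54 and 14.6 TPM with 2 of 5 tested lower and a median log2 ratio of -0.52. The 5 erythroid markers summed to 239 TPM in animal 1 and 284 TPM in animal 2, with a median log2 ratio of -0.01, and none passed. The 6 cardiomyocyte markers summed to 27797 TPM in animal 1, against 32026 TPM in animal 2, and had a median log2 ratio of 0.02, 3 passing higher and 1 lower. Among 6 skeletal muscle markers 4 were tested, 1 passing higher and 1 lower, with a median log2 ratio of -0.02; Myh1, with 22 reads against 1, had a ratio of 23.2 with a counting interval of 3.75 to 958, but its log2 ratio was 1.61 by the second quantification, which listed it at 0.152 and 0.155 TPM. Among all markers, Cyp11b2 alone was at 0 in both libraries. The part of these cells in the lower Zbtb16, Sgk1, Ddit4, Fkbp5 and Klf15 of animal 1 was not tested.

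**Figure D5:**
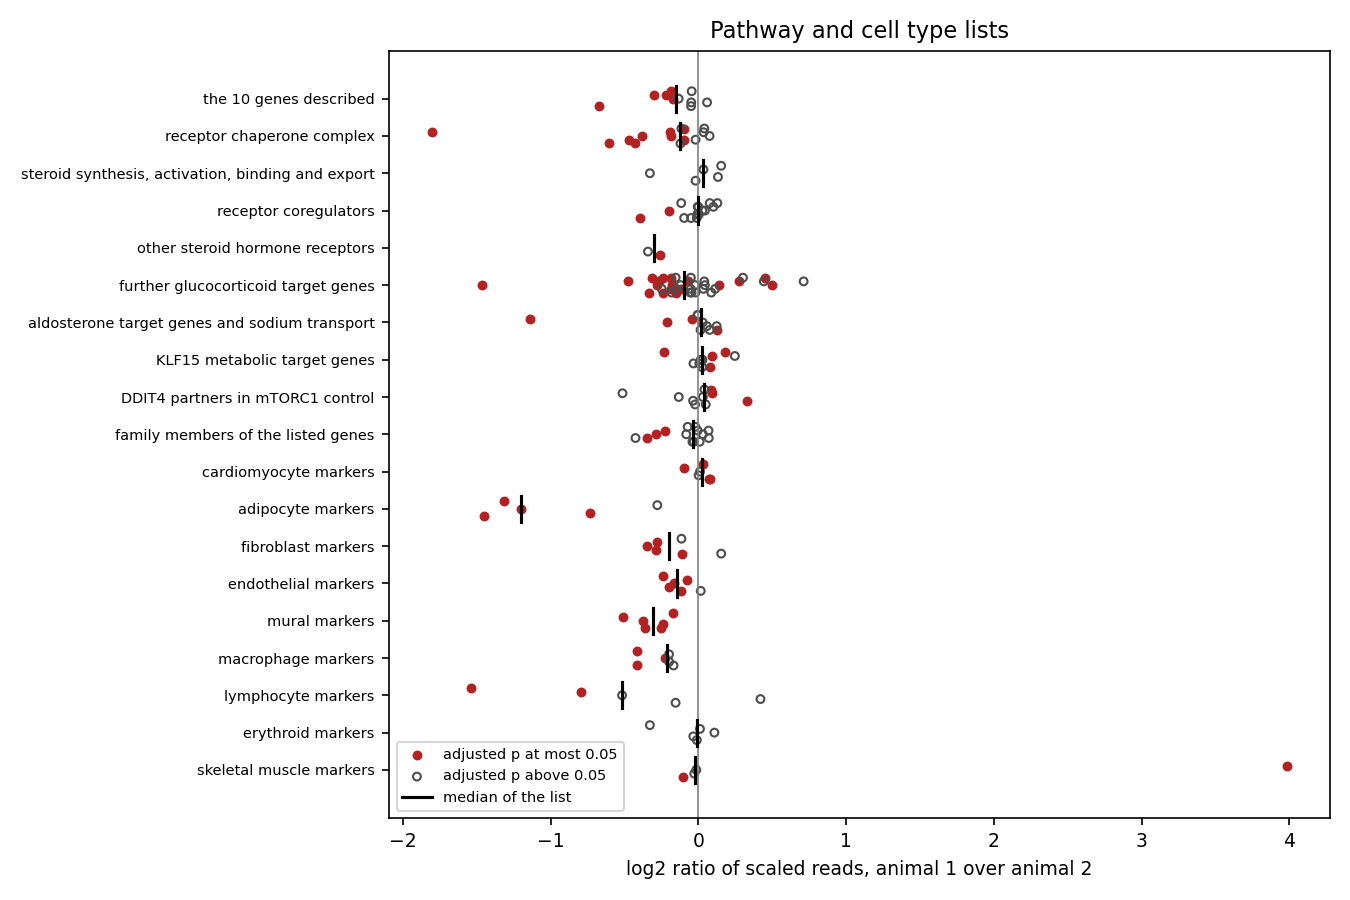
Log2 ratio of scaled reads, animal 1 over animal 2, for each tested gene of the pathway and marker lists, filled red where the adjusted p is at most 0.05, with a bar at each list's median. The adipocyte list has a median of -1.20 and the mural list -0.31, and the cardiomyocyte list lies at 0.02.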

How the data were processed

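Total RNA-seq of heart from 2 mice of 1 group was used, with 1 library each. The gene table and first transcript table hold expected counts, TPM and, for transcripts, the percent of the gene's TPM, deposited by the authors with column names of RSEM output. Another transcript table, the second quantification, has column names of kallisto output and gives the authors' estimated counts and TPM. The annotation is GENCODE M21 on mm10, per the deposited readme. The sources used here do not name the aligner, the tool versions or the use of strand in counting. Entries with numbers in place of a gene identifier held 4 and 2 reads and were left out.

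Expected counts were rounded, and the test covered genes whose reads summed to at least 20. Library sizes were scaled by TMM in edgeR 4.0.16 (R 4.3.3), and each gene's reads entered an exact binomial test, two-sided (scipy 1.17.1) with Benjamini-Hochberg adjustment over all 16133 genes at 0.05, with and without a minimum of 2-fold. Log2 ratios used a prior count of 0.5, and intervals are exact 95%. The test was checked on counts simulated with counting error alone, which says nothing of variation between mice or libraries. edgeR's quasi-likelihood test needs replicates within a group and was not used. Alternatives were DESeq2 1.42.0 size factors, total gene reads, spike-in reads, other count filters and the second quantification. Without molecular identifiers, intervals and the limit for a count of 0, which is 3 reads, cover counting error only.

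The members and the 9 pathway and 10 marker lists were chosen with earlier results of these data known. Named from each pathway list were the 4 genes of highest mean TPM and every gene past 2-fold and the test; further names are marked or give counts in full, and some genes that this rule names are not reported here. With 2 animals of 1 group no likeness of pattern could be computed. Transcripts were joined to a RefSeq start within 100 bases.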

Additional observations from a re-analysis of the deposited data

How the results depend on the processing

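The 5 members past the test became 8 with libraries scaled by total gene reads and 6 with spike-in reads or the second quantification, and stayed at 5 with DESeq2 size factors and both other count filters. Under total gene reads the log2 ratio of Nr3c2 changed sign, to -0.0207. The median of all tested genes also moved there, to -0.08, beside 0.00 under TMM. No member passed 2-fold under any alternative. The 222 genes past 2-fold became 95 with at least 100 reads, where fewer genes were tested, and 109 when only genes whose assignment spread was at most 10% of the reads were kept, an alternative chosen after seeing the data; the other 5 alternatives stayed within 1.5 times. Of 60 log2 ratios of members under alternatives, 54 kept direction and call, 5 passed newly and 1 changed sign. Mean TPM moved by more than the SD for all 10 members with TPM over nuclear protein-coding genes and for 5 under the second quantification, and leading transcript shares moved for 8 of 9 under the second quantification. Leaving out 1 of 2 animals cannot move a mean or share by more than the SD, so it says nothing of stability here. No paired analysis was possible because there is 1 group. Depth limits Hsd11b1 most, with 171 and 198 reads.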

Other observations

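Relatives of the 10 genes gave a further view. Of 16 family members 14 were tested, 3 passed lower in animal 1 and none passed higher, with a median log2 ratio of -0.04. Among all tested genes 6.6% passed lower and 4.75% higher, and among those with at least 2000 reads 13.2% and 8.26%. The highest were Tsc22d4 at 104 ± 13.4 TPM, the immunophilins Fkbp3 at 96.7 ± 11.8 TPM and Fkbp1a at 84.9 ± 10.9 TPM, and the mitochondrial Fkbp8 at 48.2 ± 3.82 TPM (SD, n = 2), and none of these passed. The 3 that passed were the Krüppel-like factor genes Klf2, Klf4 and Klf6. Klf2, a factor of endothelial cells, had 1772 reads in animal 1 against 2376 in animal 2, a log2 ratio of -0.35, beside -0.28 for Klf4 and -0.23 for Klf6. Sgk2 had 0 reads in either library and Sgk3 had 413 and 415. These Klf and Sgk genes were named after their values were seen.

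The receptors for oestrogen and progesterone were far below the corticosteroid receptors. The oestrogen receptor gene Esr1 stood at 0.385 ± 0.106 TPM (SD, n = 2). Esr1 had 56 reads in animal 1 and 75 in animal 2, and did not pass. Pgr had 4 and 3 reads and Esr2 had 2 and 0, too few to test.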
